A study of Mus musculus with 6 samples.

Results

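The genes described here are 43 genes of DNA replication, chosen by name from the machinery that copies the genome and supplies it with nucleotides and histones. They were 43 of the 13932 genes in the deposited gene table, and each of the 43 was found there and in the junction table by its symbol and passed the filter on low counts. Levels and splicing were measured by RNA sequencing in common myeloid progenitors, the bone marrow cells that give rise to granulocytes, monocytes, red cells and platelets. The cells carried a doxycycline-inducible transgene of the splicing factor U2AF1, either the mutant U2AF1(S34F) or the normal U2AF1(WT), and all of them also carried rtTA, the transactivator that doxycycline switches on. Both groups came from mice transplanted with transgenic donor marrow that had engrafted for more than 6 weeks before the mice ate doxycycline chow for 5 days. Donor-derived cells were sorted as lineage-negative, c-Kit-positive, Sca-1-negative, CD34-positive and Fc gamma receptor-negative. There were 3 libraries per genotype, and each library pooled the marrow of 4 to 5 mice. S34F stands below for the mutant libraries and WT for the libraries with the normal transgene, and values are given in the order of replicates 1 to 3 of each.

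Replication starts at origins, where CDC6 and CDT1 load the MCM2-7 ring onto DNA, and CDC45 and the GINS complex turn the loaded ring into an active helicase. DNA polymerase alpha and primase lay down primers, RPA covers the unwound strand, RFC loads the PCNA clamp, and polymerases delta and epsilon extend the strands while FEN1 and LIG1 join the lagging-strand fragments. U2AF1 recognises the AG that closes an intron at the acceptor site. Cells with the S34F form are known to prefer acceptors with C over those with T in the intron base that precedes this AG, which is position -3. In myeloid progenitors, most of which divide often, the replication genes are strongly expressed.

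The libraries held between 46827909 and 94562984 gene counts, and the WT libraries included the 2 deepest. The 43 genes took 0.828%, 0.818% and 0.807% of all gene counts in S34F and 0.762%, 0.777% and 0.828% in WT, so the groups overlapped. The mouse gene U2af1 stood at 119, 136 and 122 CPM (counts scaled to library size) in S34F and 104.98, 125 and 128 in WT, and gene counts do not show which allele was expressed. Replicate 1 of each genotype had 5714 and 5580 counts of the Y-linked gene Ddx3y and the other 4 libraries had 0, so these libraries came from male cells. The markers Kit, Cd34, Mpo and Flt3 were present in all 6 libraries, Ly6a (Sca-1) stood at 1.1 to 1.8 CPM, and Fcgr3 at 33.4 to 110.8 CPM although the sort was for cells without Fc gamma receptor. Of 13 tested markers of dendritic cells and macrophages, 10 were lower in S34F and 3 higher, with a median log2 fold change of -1.74. Of the 13, 8 had an unadjusted edgeR p under 0.05, all lower in S34F, and 6 were called by DESeq2. The summed CPM of this list overlapped, at 1439, 1865 and 862 in S34F and 1106, 1466 and 934 in WT. Erythroid markers were below 0 for 8 of 9 tested genes (median -0.69, 4 at an unadjusted edgeR p under 0.05), and the 6 megakaryocyte and platelet markers had a median of -0.46. Mitochondrial genes took 2.77%, 2.68% and 2.44% of gene counts in S34F and 2.04%, 1.84% and 1.27% in WT, without overlap. The part of these markers and of the mitochondrial share in the values below was not tested. In bulk RNA a change in the number of dividing cells cannot be told apart from a change in RNA per cell.

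No replication gene passed the test for a difference in level between the genotypes. edgeR's quasi-likelihood test with Benjamini-Hochberg adjustment over 13905 genes called 0 of the 43, and its background was 0% of all genes. DESeq2 also called 0 of the 43, beside 0.689% of all genes. At an unadjusted edgeR p under 0.05 there were 5 of the 43, all higher in S34F, namely Rfc3, Tyms, Rrm2, Rfc4 and Mcm10. Over all genes 9.1% reached that level, 4.39% higher and 4.7% lower. In 12 of the 43 the genotypes did not overlap (11 higher and 1 lower), beside 15.6% of all genes (7.16% higher and 8.47% lower). The fitted log2 fold change was above 0 for 24 genes and below 0 for 19. Its median was 0.03, and -0.0052 over all genes.

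The measurement was tight enough to bound most differences. The 95% interval of the log2 fold change lay within 0.5 of 0 in either direction for 36 of the 43 genes, beside 40.1% of all genes, and within 1 for 42. The exception to the wider bound was Rrm2, whose interval reached 1.26. The median standard error of the log2 fold change was 0.106 for the 43 genes and 0.167 for all genes, and the median SD within a genotype was 0.111 and 0.188 on the log2 scale.

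**Figure D1:**
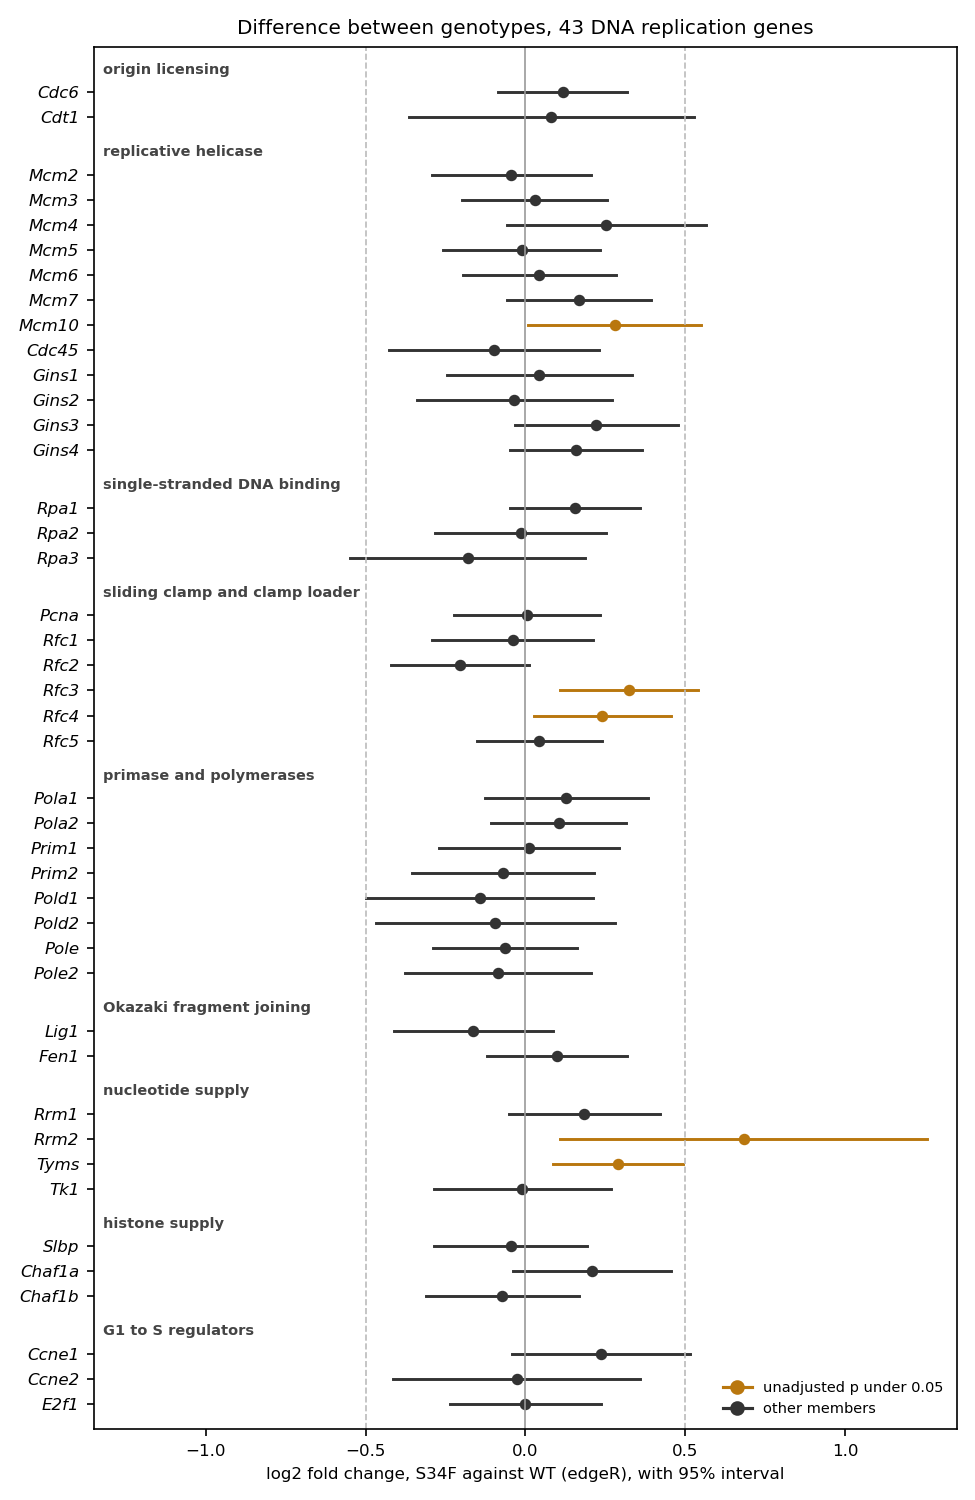
Log2 fold change of each of the 43 genes, S34F against WT, by role (horizontal axis, edgeR), with a line for the 95% interval and dashed lines at 0.5 in either direction. The 5 genes with an unadjusted p under 0.05 lie to the right of 0 in a second colour, and 36 of the 43 intervals stay between the dashed lines.

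The licensing factors Cdc6 and Cdt1 did not differ beyond their spread. Cdc6, which brings the helicase ring to origins, stood at 121, 120 and 111 CPM in S34F and 103, 112 and 109 in WT, with the groups overlapping (log2 fold change 0.12, 95% interval -0.09 to 0.32). Cdt1, its partner in loading, stood at 68.4, 76.8 and 75.0 CPM in S34F and at 76.2, 48.6 and 83.4 in WT. WT replicate 2 was the low library, and without it the log2 fold change of Cdt1 was -0.12 in place of 0.08.

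The 12 helicase genes had a median log2 fold change of 0.04. Mcm6, a subunit of the ring and its highest member by FPKM (the authors' level per transcript length), stood at 855, 846 and 785 CPM in S34F and 729, 822 and 860 in WT. The other ring subunits Mcm2, Mcm3 and Mcm5 lay between -0.04 and 0.03, and Mcm4 was at 0.25 with overlapping groups. Mcm7 was the ring subunit whose genotypes did not overlap, at 527, 581 and 565 CPM in S34F and 515, 459 and 514 in WT (log2 fold change 0.17, interval -0.06 to 0.39). Mcm10, a factor that activates the loaded helicase, stood at 97.9, 87.3 and 96.9 CPM in S34F and 86.6, 67.5 and 78.3 in WT. Each S34F library was above each WT library, and S34F replicate 2 and WT replicate 1 nearly met. Its log2 fold change was 0.28 with a standard error of 0.116 (edgeR unadjusted p = 0.0443, adjusted p = 0.548). Of the GINS subunits, Gins3 (0.22) and Gins4 (0.16) had no overlap and Gins1 (0.04) and Gins2 (-0.03) did, while Cdc45 was at -0.10.

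RPA, the single-strand binding complex, has 3 subunits, and their fold changes did not run together. Rpa1, the large DNA-binding subunit, stood at 268, 247 and 250.1 CPM in S34F and 222, 227 and 238 in WT, without overlap (log2 fold change 0.15, interval -0.05 to 0.36). Rpa2 and Rpa3 overlapped, at -0.02 and -0.18.

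The clamp loader subunits split in direction. Rfc3 stood at 64.7, 73.7 and 69.5 CPM in S34F and at 56.1, 54.2 and 55.8 in WT, with the 2 groups well apart. It had the smallest p of the 43 genes, with a log2 fold change of 0.32, a standard error of 0.093 and an interval of 0.11 to 0.54 (edgeR unadjusted p = 0.00864, adjusted p = 0.538). Rfc4 stood at 52.7, 49.96 and 48.3 CPM in S34F and 44.3, 41.5 and 41.9 in WT, again without overlap (log2 fold change 0.24, edgeR adjusted p = 0.545). Rfc2, another small subunit of the same loader, was the one replication gene with every S34F library below every WT library. Its values were 218, 219 and 213 CPM in S34F and 233, 247 and 269.9 in WT (log2 fold change -0.20, interval -0.42 to 0.01, edgeR unadjusted p = 0.0599). Rfc1, the large subunit, and Rfc5 were at -0.04 and 0.04. Pcna, the clamp itself, stood at 509, 469 and 479 CPM in S34F and 445, 517 and 489 in WT, with the groups interleaved (log2 fold change 0.01, interval -0.22 to 0.23).

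None of the 8 primase and polymerase genes reached an unadjusted p of 0.05, and in all 8 the genotypes overlapped. Pola1, the catalytic subunit of polymerase alpha, stood at 376, 344 and 336 CPM in S34F and 284, 340 and 343 in WT, where WT replicate 1 was the low library. Pold2, a subunit of polymerase delta, stood at 81.0, 112.6 and 92.1 CPM in S34F and 84.1, 104.9 and 115.9 in WT, so each genotype covered nearly the range of the other. The fold changes of the 8 genes ran from -0.14 (Pold1) to 0.13 (Pola1). Of the fragment-joining genes, Fen1, a flap nuclease, was at 0.10 and Lig1, the ligase, at -0.16. Lig1 stood at 151, 157 and 162 CPM in S34F and 158, 171 and 197 in WT, and Fen1 at 197, 215 and 197 against 179, 186 and 204. Both overlapped.

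The nucleotide supply genes held the widest difference. Rrm2, the regulatory subunit of ribonucleotide reductase, stood at 104, 83.9 and 91.0 CPM in S34F and at 82.6, 40.5 and 51.0 in WT. WT replicate 1 was close to the S34F libraries and WT replicates 2 and 3 were well below them. The log2 fold change was 0.68 with a standard error of 0.247 and an interval of 0.11 to 1.26 (edgeR unadjusted p = 0.0255, adjusted p = 0.538). Without WT replicate 1 it was 1.02 and passed (edgeR adjusted p = 0.0116), in a fit in which 8.42% of all genes passed and 6.72% were higher in S34F. Over the same libraries Mpo, the myeloperoxidase gene that marks the sorted population, stood at 4322, 5948 and 5754 CPM in S34F and 6538, 3043 and 3427 in WT. The 4 sorted-population markers summed to 5743, 7031 and 7082 CPM in S34F and 7875, 4331 and 4783 in WT, none of them at 0. Their part in the Rrm2 values was not tested.

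Tyms, thymidylate synthase, stood at 136, 155 and 145 CPM in S34F and at 119 in each of the WT libraries. Its log2 fold change was 0.29 with a standard error of 0.087 and an interval of 0.09 to 0.49 (edgeR unadjusted p = 0.0115, adjusted p = 0.538). Rrm1, the catalytic subunit of the reductase, stood at 479, 403 and 438 CPM in S34F and 391, 369 and 402 in WT. S34F replicate 2 and WT replicate 3 nearly met, and the log2 fold change was 0.18. Tk1, thymidine kinase, overlapped at -0.01.

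Among the histone supply genes, Chaf1a, a subunit of the chromatin assembly factor CAF-1, stood at 82.4, 89.0 and 88.4 CPM in S34F and 84.3, 69.2 and 71.5 in WT, with WT replicate 1 inside the S34F range. Slbp, which binds the stem-loop of histone mRNAs, stood at 205, 182 and 191 CPM in S34F and 179, 210 and 208 in WT. Their log2 fold changes were 0.21 and -0.05, and that of Chaf1b was -0.07. Of the genes that drive entry into S phase, Ccne1, the gene of cyclin E1, stood at 19.01, 19.03 and 17.0 CPM in S34F and 16.7, 15.0 and 15.1 in WT, without overlap (log2 fold change 0.24, interval -0.04 to 0.51). Ccne2 stood at 59.7, 51.3 and 44.6 CPM against 42.9, 62.5 and 53.2, and the transcription factor gene E2f1 lay between 31.5 and 35.3 CPM in all 6 libraries.

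The lowest of the 6 libraries was a WT library for 36 of the 43 genes and an S34F library for 7, while the highest was a WT library for 24 and an S34F library for 19. WT replicates 1, 2 and 3 were the lowest for 21, 15 and 0 genes, and the highest for 3, 7 and 14. S34F replicates 1, 2 and 3 were the lowest for 4, 1 and 2 genes, and the highest for 10, 9 and 0. The same counts over all genes were not computed, so these describe the libraries and are no test of genotype.

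**Figure D2:**
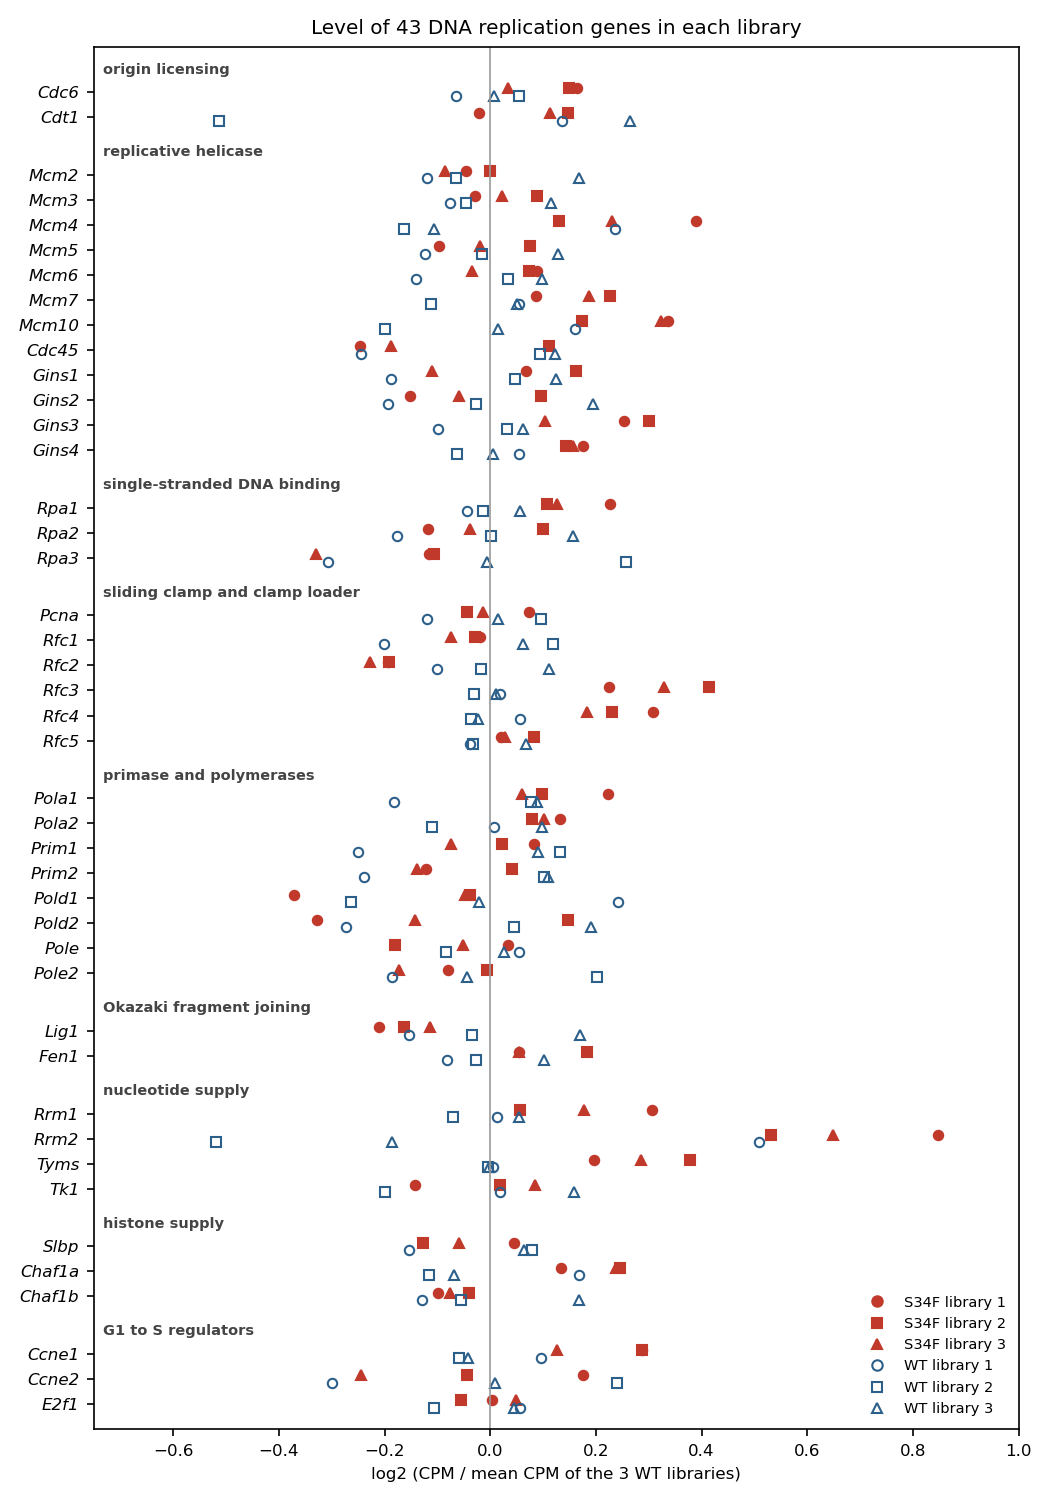
Level of each of the 43 genes in each library as log2 of its CPM over the mean CPM of the WT libraries (horizontal axis), filled marks for S34F and open marks for WT. The marks interleave for 31 genes, the S34F marks of Rfc3 and Tyms lie to the right of the WT marks, and those of Rfc2 to the left.

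Levels between genes were compared on the authors' FPKM, which are per transcript length. FPKM were read only between genes, because the median over all genes ran from 4.92 to 6.18 in S34F libraries and from 6.42 to 7.79 in WT libraries. Pcna was the highest of the 43, at 172, 140 and 168 FPKM in S34F and 177, 207 and 245 in WT (mean of 6 libraries, 185). Mcm6 (122), Mcm7 (107), Mcm5 (95.5) and Mcm3 (85.1) followed by their means. The ranges over libraries of neighbouring genes in this order overlapped, for example 98.8 to 161 for Mcm6 and 91.2 to 129 for Mcm7. The subunits of the ring were not level with each other, and Mcm4 had a mean of 34.04 FPKM, below the lowest library of Mcm2 (55.1). The lowest members were Ccne1 (mean 4.29 FPKM), Gins3 (5.52) and E2f1 (8.14). The member median was 24.4 FPKM, against 6.35 over 12119 genes, and 41 of the 43 lay above that.

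**Figure D3:**
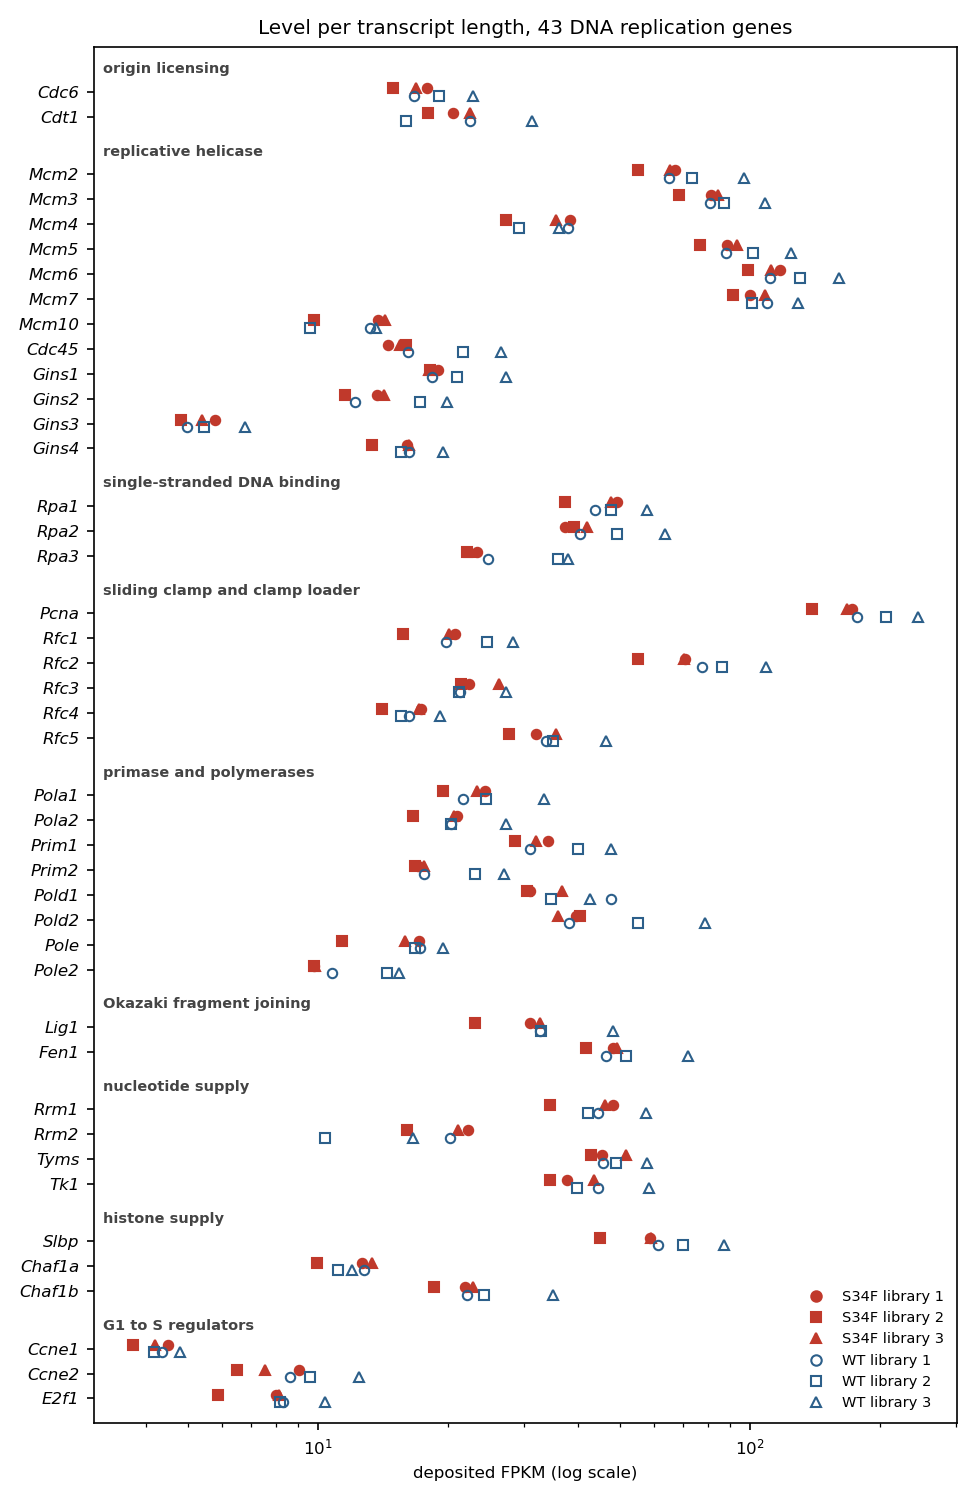
The authors' FPKM of each of the 43 genes by role in each library (horizontal log axis), filled marks for S34F and open marks for WT. Pcna lies farthest right by its mean (185), followed by Mcm6 (122) and Mcm7 (107), and Ccne1 farthest left (4.29), and Pcna ranges from 140 to 245 FPKM over the libraries.

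Other genes of the pathway showed the same absence of calls, and neither edgeR nor DESeq2 called a gene in any of the 6 lists. Of the other licensing and firing genes, 2 of 17 tested had an unadjusted edgeR p under 0.05, both higher in S34F, and the list median was -0.02. These were Gmnn, the gene of the CDT1 inhibitor geminin, at 64.0, 59.4 and 61.9 CPM in S34F and 55.2, 38.8 and 41.2 in WT, and Mcm8 (log2 fold change 0.33). Of other fork genes it was 2 of 19, with a median of 0.01, namely Dscc1 (0.28), of an alternative clamp loader, and 2810417H13Rik (0.38). Of other nucleotide genes it was 4 of 20, all higher, with a median of 0.07. Of these, Dut, whose enzyme removes dUTP, stood at 196, 184 and 176 CPM in S34F and 162, 92.8 and 97.2 in WT, and Mthfd2, of mitochondrial folate metabolism, had a log2 fold change of 0.40. Of replication-coupled chromatin genes it was 2 of 11, with a median of 0.17, namely the histone chaperone genes Rbbp7 (0.64) and Asf1a (0.34). Rbbp7 stood at 349, 303 and 333 CPM in S34F and 291, 172 and 170.1 in WT. In Gmnn, Dut and Rbbp7, as in Rrm2, WT replicate 1 was nearest to the S34F libraries and WT replicates 2 and 3 were lower. Of other E2F and RB genes it was 1 of 14 (E2f6, 0.50), with E2f4 next by p (0.69, groups overlapping). Of genes of G2 and mitosis it was 2 of 20, the kinesin gene Cenpe (0.41) and Hmmr (0.32), with a median of 0.02. All 13 genes with p under 0.05 were higher in S34F, beside 4.39% of all genes higher and 4.7% lower at that level.

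Splicing of the replication genes was read from 742 junctions, of which 620 joined an annotated pair of sites, with 2 to 56 junctions per gene. For introns that share a donor, the share of each acceptor was tested, and likewise the share of each donor at a shared acceptor and the inclusion of internal exons. Unannotated junctions took 0.424 ± 0.0508% of the members' junction reads in S34F and 0.491 ± 0.0674% in WT (SD, n = 3), less than over all genes (0.772% and 0.765%). The genotypes overlapped.

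No splice form of a replication gene passed the adjusted threshold. For acceptor choice, 131 forms at 63 donors in 34 of the 43 genes could be tested, and edgeR and DESeq2 called 0 of them, beside 0% and 1.24% of all forms. For donor choice, 105 forms in 31 genes gave 0 calls by either tool, beside 0.00997% and 0.774%. For internal exons, 19 exons in 13 genes gave 0 calls, beside 0% and 1.34%. At an unadjusted edgeR p under 0.05 there were 5 acceptor forms (3.82%, beside 7.51% of all forms), 3 donor forms (2.86%, beside 6.42%) and 2 exons (10.5%, beside 10.4%). No form differed by 10 percentage points or more, while 6.4% of all acceptor forms, 5.73% of donor forms and 7.79% of exons did. The median difference of acceptor shares, without sign, was 1.11 points, against 1.87 over all genes. It was 1.51 points against 1.82 for donor shares, and 2.53 against 2.36 for exons. The forms of one site are mirror images and share reads, so that they are not independent.

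The forms with an unadjusted p under 0.05 lay in 4 genes, and the acceptors of the events in acceptor and exon choice are printed here because the base before their AG is the one that U2AF1(S34F) is known to read differently. Each line gives 20 bases of intron and 3 of exon from the mm9 genome, 5' to 3' on the minus strand, with bases -3 to -1 of the intron in capitals.
Pole2, unannotated acceptor, chr12:70308649-70308671: tgtggtctttgtgttggCAGtgg
Pole2, annotated acceptor, chr12:70307503-70307525: caacccctgtttcgttgCAGaat
Ccne1, 69 nt exon, chr7:38891364-38891386: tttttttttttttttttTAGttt
Ccne1, next exon, chr7:38888211-38888233: ggcatgtgttctattggCAGccc
Slbp, 105 nt exon, chr5:33992494-33992516: gcatttttattttgttgTAGctt
Slbp, next exon, chr5:33988716-33988738: gtattttattccgttctCAGgta
Tyms, unannotated acceptor, chr5:30388573-30388595: tgtgagacatttttagcCAGgtg
Tyms, annotated acceptor, chr5:30388577-30388599: ttcctgtgagacattttTAGcca

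Pole2, the gene of the second subunit of polymerase epsilon (chromosome 12, 70302766 to 70329177, minus strand), used an acceptor inside an intron that the annotation does not hold. It took 6.35%, 3.12% and 8.17% of the reads of its donor in S34F, or 16, 9 and 25 reads, and 1.53%, 0.538% and 0% in WT, or 4, 2 and 0 reads. The 0 of 445 reads in WT replicate 3 allows a share of up to 0.674%. The genotypes did not overlap, and the difference was 5.19 points (edgeR unadjusted p = 0.0154, adjusted p = 0.588; DESeq2 adjusted p = 0.112). Both competing acceptors have C at -3, so that the pair does not differ at that base. The level of Pole2 did not differ beyond its spread (log2 fold change -0.09, interval -0.38 to 0.21).

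In Ccne1 (chromosome 7, 38883003 to 38892553, minus strand), a coding exon of 69 nt at 38891298 to 38891366 was included less in S34F. Inclusion was 94.0%, 92.1% and 94.8% in S34F and 100%, 97.5% and 100% in WT, without overlap. These values rest on 9, 9 and 6 skipping reads in S34F and 0, 4 and 0 in WT. The difference was -5.53 points (edgeR unadjusted p = 0.0234, adjusted p = 0.407). As a share of the reads of its donor, the counts of 0 allow skipping of up to 2.73% in WT replicate 1 and 1.45% in WT replicate 3. As a share of the reads of its acceptor they allow up to 2.22% and 2.11%. The exon keeps the reading frame when skipped. Its own acceptor has T at -3 behind an unbroken run of T, and the acceptor of the next exon has C. The same skipping junction made up the other Ccne1 events with an unadjusted p under 0.05.

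Slbp (chromosome 5, 33977601 to 33995223, minus strand) had the same arrangement at a coding exon of 105 nt at 33992392 to 33992496, with T at -3 of its own acceptor and C at that of the next exon. Inclusion was 94.6%, 93.5% and 93.8% in S34F and 95.7%, 96.9% and 94.95% in WT, on at least 2672 reads per library. The groups did not overlap but nearly met (-1.88 points, edgeR unadjusted p = 0.0373, adjusted p = 0.451). A second Slbp form was found in the authors' deposited table, which calls 2 of 742 member junctions at an adjusted p under 0.05, beside 0.34% of all junctions. It is a rare intron from 33977825 to 33984549, with 22, 20 and 33 reads in S34F and 2, 10 and 11 in WT. The authors' deposited table gives it a log2 fold change of 2.44 and an adjusted p of 0.00495. Its share of its donor's reads was 1.36%, 1.61% and 2.54% in S34F and 0.141%, 0.406% and 0.335% in WT, without overlap. Over all libraries it fell under the 1% share that the tests here required. The other junction called in the authors' deposited table, a rare intron of Mcm6, had 0 reads in each S34F library and 4, 14 and 19 in WT. The authors' deposited table gives it a log2 fold change of -7.72 and an adjusted p of 0.0140. Its share of its acceptor's reads was small in WT too, at 0.145%, 0.370% and 0.343%.

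Tyms (chromosome 5, 30384742 to 30400157, minus strand) showed a difference that ran between libraries rather than genotypes. An unannotated acceptor 4 nt into an exon took 6.26% and 7.90% of its donor's reads in WT replicates 2 and 3, or 117 and 193 reads. In WT replicate 1 and in all S34F libraries it had 0 or 1 read of at least 1168. WT replicate 1 was thus like the S34F libraries, and the genotypes overlapped (edgeR unadjusted p = 0.0334, adjusted p = 0.654). This acceptor has C at -3 and the annotated one printed above has T. The mean share of the C form was lower in S34F (-4.67 points), opposite to the order of C over T. Another annotated acceptor of the same donor has G at -3, so that this donor is not among those with 1 C and 1 T acceptor counted below. A rare donor of Tyms took 0.772%, 0.570% and 0.848% in S34F and 1.75%, 2.02% and 1.21% in WT (-0.93 points, edgeR unadjusted p = 0.0103, adjusted p = 0.687). It is the donor of an annotated coding exon of 122 nt at 30396374 to 30396495. Its reads count again in the inclusion of that exon, which is among the exons with T at -3 below.

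**Figure D4:**
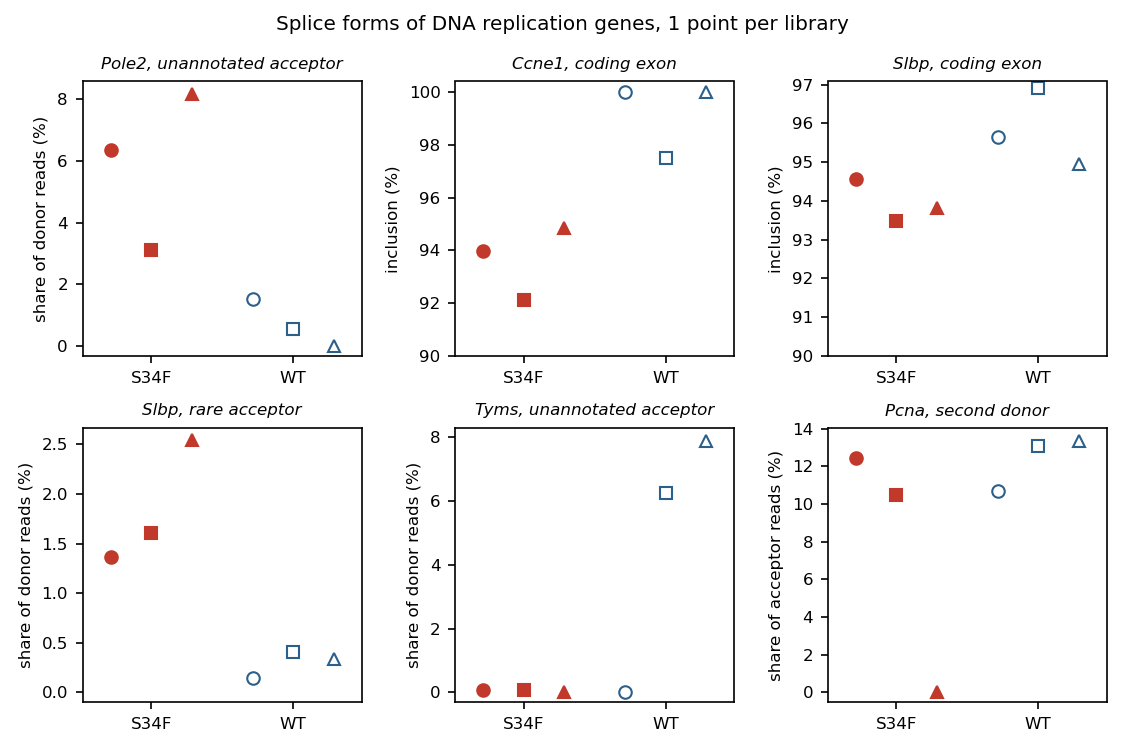
Share or inclusion in percent (vertical axes, those of inclusion starting at 90%) of 6 splice forms, 1 mark per library, filled for S34F and open for WT. The marks of Pole2, Ccne1 and both Slbp forms do not overlap between genotypes, while the Tyms form is at or near 0 in all S34F libraries and WT replicate 1, and the Pcna form is at 0 in S34F replicate 3 alone.

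Read across the members, the exons with T at -3 of their own acceptor shared the direction of the difference in inclusion, while those with C were mixed. All 10 tested exons with T at -3, in 7 genes, had lower mean inclusion in S34F, by a median of 2.12 points, and in 5 of them the genotypes did not overlap. Counting both directions, 8 of the 19 member exons did not overlap, beside 19.6% of all exons. Over all genes 78.4% of 2862 such exons were lower, and 25.8% were lower without overlap. Among the 10 member exons with T, the smallest difference was -0.0485 points, in a Pola1 exon. Others rest partly on junctions without reads in some libraries. A junction into the Tyms exon had 0 of 1377 reads in S34F replicate 3 and 5.71% to 8.36% of its donor's reads elsewhere. The skipping junction lacked reads in WT replicate 3 for Rrm2, and in WT replicates 1 and 3 for the Ccne1 exon described above. The part of these gaps in the shared direction was not tested. Of the 7 member exons with C at -3, 5 were higher, by a median over the 7 of 2.30 points, against 55.6% of 4770 over all genes. The 1 exon with A, in Cdc6, was higher (1.55 points), and the 1 with G, in Pola1, was lower (-4.15 points). The latter shares its donor with a Pola1 exon with T. The members with T included Tk1, whose 32 nt exon was included at 94.98%, 94.2% and 94.8% in S34F and 95.7%, 97.7% and 96.1% in WT. A longer form of the same Tk1 exon, of 421 nt, shares its acceptor and skipping reads and is no separate observation. The members with C included Cdc45, where a 37 nt form gave inclusion values of 91.1%, 91.3% and 94.5% in S34F and 90.5%, 87.3% and 87.1% in WT, again without overlap. The 37 nt form is not an annotated exon, and its own acceptor was not among the acceptor forms tested. Its values average the junction into it with a downstream junction that also serves an annotated Cdc45 exon of 138 nt. They therefore do not measure the use of a 37 nt exon alone. The 138 nt exon shares the donor and skipping reads of the 37 nt form, so that these 2 of the 5 higher exons are no separate observations either. None of the 19 exons passed the adjusted test, and the counts are given as a description of these 6 libraries.

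**Figure D5:**
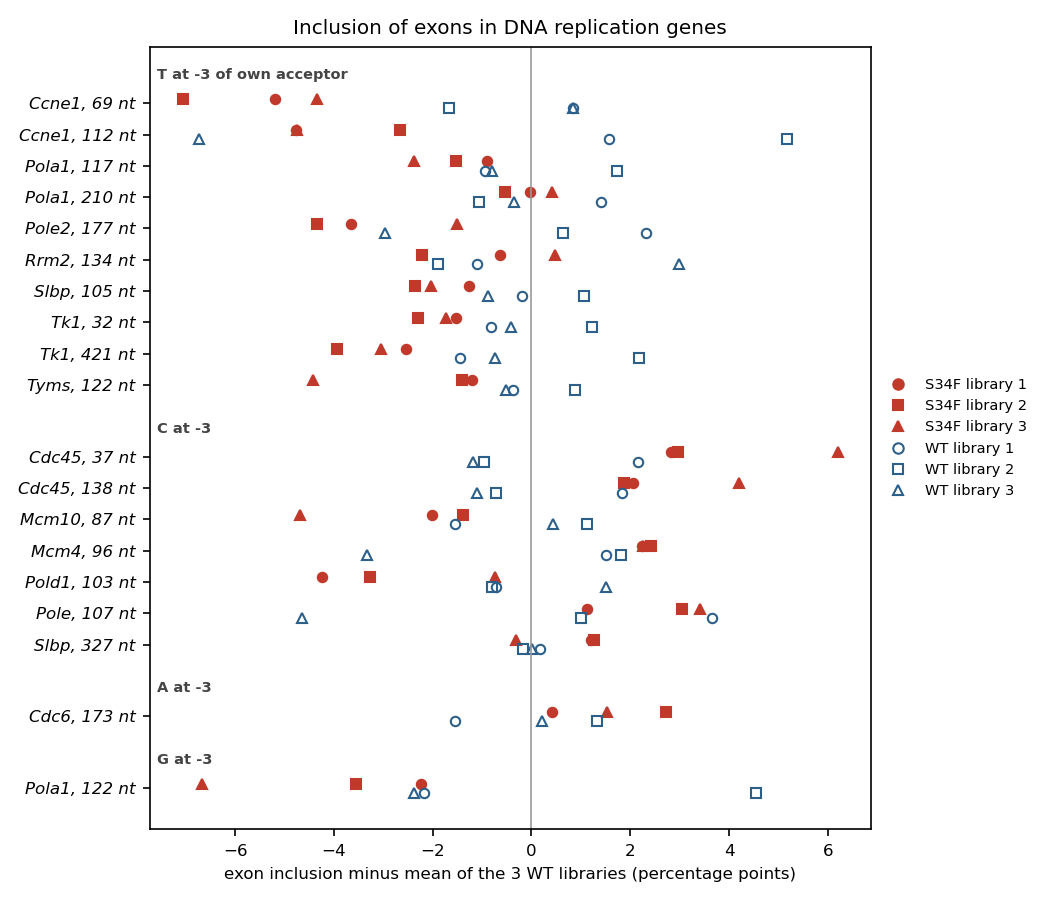
Inclusion of the 19 tested exons in each library, as percentage points from the mean of the WT libraries (horizontal axis), grouped by the base at -3 of the exon's own acceptor, filled marks for S34F and open marks for WT. The S34F marks of the 10 exons with T lie mostly to the left of 0, and those of the Cdc45, Mcm4 and Pole exons with C to the right. The Mcm10 and Pold1 exons with C were lower in S34F by their means (-2.70 and -2.75 points).

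For acceptor choice the same order of C over T was present at most sites. At 21 member donors that offered 1 acceptor with C and 1 with T at -3, the C form took a larger share in S34F at 14, by a median over the 21 of 0.880 points, against 68.4% of 4015 such donors over all genes with a median of 1.08 points. Some of the 21 pairs are the own acceptor and the next acceptor of exons counted above, in Tk1, Rrm2, Slbp, Ccne1, Pola1, Pole and Mcm10. Their skipping reads enter the exon counts and this count, so that for them the order is no separate observation. The largest difference in acceptor choice among the members was outside the named events and was chosen after its value was seen. In Pola2, an unannotated acceptor took 22.7%, 25.9% and 20.6% in S34F and 12.6%, 15.5% and 18.3% in WT (7.60 points, edgeR unadjusted p = 0.0830). Both acceptors of this pair have C at -3.

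Some splice forms of the replication genes were present in some libraries and missing or nearly missing from others. With a rule set after the data were seen (under 0.5% in one library and over 4% in another, at 100 or more reads in each), 16 of 129 acceptor forms and 14 of 101 donor forms of the members were uneven in this way, or 12.4% and 13.9%. Over all genes it was 14.6% and 13.4%. In 6 of the 30 the genotypes did not overlap (5 higher and 1 lower in S34F), beside 17% of all tested acceptor forms and 14.8% of all tested donor forms. The same count over the uneven forms of all genes was not computed. Some junctions are counted under both acceptor and donor choice, and the skipping junction of Ccne1 enters the 6 under both. In none of the 30 was the form under 0.5% in every library of one genotype and over 4% in every library of the other. A second donor of Pcna took 10.5% to 13.4% of the reads of its acceptor in 5 libraries and 0 of 4456 reads in S34F replicate 3, which allows up to 0.0673%. A donor of Mcm7 took 5.33% to 6.96% in 5 libraries and 0 of 3999 reads in WT replicate 3, which allows up to 0.0750%, and a Rfc2 acceptor took 6.27% to 7.48% in 3 libraries and 0.178% to 0.292% in the other 3. The forms of Pole2, Ccne1 and Tyms described above are among them. What sets these gaps was not tested. Whether junctions were searched for in each library alone is not given in the sources used here, and the limits printed for counts of 0 hold only for reads assigned to a junction, not for its use in the cells.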

How the data were processed

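RNA was sequenced from 6 libraries of sorted progenitors, 3 per genotype, as stranded pairs of reads of 100 bases after removal of ribosomal RNA, per the labels' protocols and the design text. Reads were aligned to mm9 with TopHat2 2.0.8, and the submitters' processing notes also name Bowtie2 2.1.0, Cufflinks 2.1.1, HTSeq 0.5.4p1 and DESeq2 1.6.1. The authors deposited raw counts per gene and raw counts per splice junction, FPKM per gene, and their own log2 fold changes with p-values (gene test, and junction test named DEXSeq per the file headers). Those of the authors' comparisons are quoted only as such.

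Gene counts were fitted over the whole table with edgeR 4.0.16 (TMM scaling, filterByExpr, quasi-likelihood test) in R 4.3.3, with DESeq2 1.42.0 as an alternative, and adjusted by Benjamini-Hochberg at 0.05. CPM are TMM-scaled. Each splice event was fitted as a pair of counts (its form and the competing forms) with terms for library, form and the interaction of form with genotype, which was tested, at 20 or more reads in every library and a share of 1% or more (2% for exons of 10 to 1000 nt) for either form. limma 3.58.1 was run on log2 ratios with 0.5 added to each count. Exon inclusion in percent averages both inclusion junctions. Junction positions are those of exon bases, which was checked on 723 introns of the members, and splice sites were read from the mm9 genome. The tests were checked on simulated data. There the edgeR test of splice forms recovered changes when the spread of rare forms between libraries was narrow and failed to when it was wide. Other settings were no filter, DESeq2 size factors, total counts, 50 reads, a share of 5%, a replicate block and leaving out each library.

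Libraries are pools of separate mice only as far as the labels say, and p-values measure the spread between these libraries. Limits from a count of 0 use 3 counts and cover counting error only. The 43 genes and all lists were chosen with earlier results of these data known. Values per library are given for the member of lowest p and of highest FPKM in each role, and every member or event with an unadjusted edgeR p under 0.05. The 2 genes of lowest p in each pathway list are named, with values per library for some. Members with no overlap were added after their values were seen.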

Additional observations from a re-analysis of the deposited data

How the results depend on the processing

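The count of 0 replication genes called held under DESeq2, DESeq2 size factors, total counts, no filter on low counts and each left-out library other than WT replicate 1. Leaving out each library in turn gave 0 to 1 calls. The 1 call was Rrm2 without WT replicate 1, and it was again 1 without both replicate 1 libraries, a setting chosen after seeing the data, in which the log2 fold change of Rrm2 was 0.93 and 599 genes passed. The 5 genes at an unadjusted p under 0.05 became 2 to 11 when each library was left out (2 without S34F replicate 1, 3 without S34F replicate 3, 11 without WT replicate 1, 2 without WT replicate 2 and 2 without WT replicate 3) and 8 without both replicate 1 libraries. Log2 fold changes near 0 changed sign over the left-out libraries, both replicate 1 libraries included. They ran from -0.085 to 0.057 for Pcna, -0.045 to 0.095 for Mcm6, -0.0042 to 0.18 for Pola1, -0.23 to 0.011 for Pold2, -0.27 to 0.11 for Ccne2 and -0.12 to 0.23 for Cdt1. The lowest of Pcna, Mcm6, Pola1 and Ccne2 came without both replicate 1 libraries, and that of Ccne2 was -0.16 when single libraries were left out. The cause was not tested.

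No splice event of a member was called by edgeR, DESeq2 or limma under any setting run here, while the authors' deposited table calls 2 member junctions. The counts at an unadjusted p under 0.05 were 2 to 12 acceptor forms, 1 to 8 donor forms and 0 to 4 exons over the left-out libraries. The edgeR test of splice forms was strict, with 0 calls over all acceptor forms where DESeq2 called 1.24%, so that its lack of calls bounds little.

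The labels give the groups a shared replicate number with no source of pairing, and both replicate 1 libraries were male. Deviations of same-numbered libraries correlated at 0.253, 0.317 and 0.0393 over 13905 genes, the third under 0.1. In a fit with a replicate block, edgeR called 0 of the 43 genes, and 5 genes in all in place of 0.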
